A study of Homo sapiens with 6 samples.

Results

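The genes described here are 32 genes that fold proteins in the endoplasmic reticulum (ER), sense stress there and remove misfolded proteins, measured in HCC38 cells after silencing of CIP2A. The list was drawn up by name, with earlier results of these data known, and its rule uses no measured value. Its members are the rows of a read-count table of 26485 genes that carry 1 of these 32 symbols or an older symbol of the same gene. All 32 were found, and 31 had enough counts to be tested. They fall into 9 genes listed as chaperones of the HSP70 and HSP90 type and cofactors, 2 lectin chaperones and 6 disulfide enzymes. The others are 4 genes of the stress sensors and XBP1, and 11 genes of ER-associated degradation (ERAD). The first class also holds MANF and CRELD2, which encode secreted stress proteins.

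Secreted and membrane proteins enter the ER unfolded, are folded there by chaperones, and receive their disulfide bonds from protein disulfide isomerases. Proteins that fail to fold are returned to the cytosol and degraded, the route called ERAD. When unfolded proteins build up, the sensors ATF6, IRE1 (encoded by ERN1) and PERK (encoded by EIF2AK3) start the unfolded protein response, in which ATF6 and spliced XBP1 raise transcription of chaperone and ERAD genes, and PERK slows translation and raises ATF4 and its targets.

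HCC38 is a human breast cancer cell line, labelled triple negative and basal-like, and CIP2A encodes an inhibitor of the phosphatase PP2A. The siCIP2A group held 3 libraries, each from cells given a different CIP2A siRNA (siCIP2A#1, siCIP2A#2 and siCIP2A#3) with Oligofectamine, a transfection reagent. The control group held 1 mock library, given transfection reagent alone by its own label but described in the design text as not transfected, and 2 libraries given non-targeting siRNA, SCR#2 in one and SCR#3 in the other. The dose and the time after transfection are not stated in those sources. Each library had a treatment of its own and none was repeated, so the p-values below measure a spread between libraries that holds differences between siRNAs as well as between cultures. The labels do not say whether the transfections were done on separate occasions. RNA came from whole cultures, so fewer cells that express a gene and less RNA per cell cannot be told apart.

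Total counts per library ranged from 15547526 to 18161451 in the siCIP2A group and from 13995187 to 17116379 in the control group. Levels below are read counts scaled to library size (CPM) after normalisation of the libraries to each other. CIP2A itself stood at 16.3, 45.8 and 19.3 CPM with siCIP2A#1, #2 and #3, against 98.9, 99.8 and 103 CPM in the mock, SCR#2 and SCR#3. In a fit with a level per siRNA the log2 difference was -2.62 with siCIP2A#1, -1.13 with siCIP2A#2 and -2.38 with siCIP2A#3 (edgeR adjusted p = 2.41e-04, 0.0165 and 4.68e-04). In the group comparison CIP2A stood at -1.90 (SE 0.30, unadjusted p = 5.22e-05, edgeR adjusted p = 0.708) and was not called. Of the epithelial markers, KRT8 stood at 252 to 439 CPM and KRT18 at 395 to 708 CPM in the 6 libraries. EPCAM, KRT19, CDH1 and CLDN4 reached at most 0.747, 0.710, 1.22 and 1.95 CPM. Of the basal markers, EGFR stood at 73.0 to 84.4 CPM and TP63 reached at most 0.526 CPM. The basal keratin genes KRT5 and KRT17 had at most 1 count, and KRT14 and KRT6A had 0. The receptor genes ESR1 and PGR reached at most 0.351 and 0.117 CPM, and ERBB2 stood at 48.3 to 74.4 CPM. Of 4 plasma and secretory cell genes, SDC1, which epithelial cells also express, stood at 30.9 to 48.3 CPM, while JCHAIN, MZB1 and TNFRSF17 had at most 2 counts. The sum of the 4 was 30.96 to 48.4 CPM in the siCIP2A libraries and 36.4 to 41.1 CPM in the controls. The sum of 5 leukocyte genes was 1.18 to 1.55 CPM in the siCIP2A libraries and 0.643 to 1.15 CPM in the controls, with PTPRC at 0 in every library and CD79A at up to 20 counts. The sum of 4 endothelial genes was 7.13 to 13.6 and 7.50 to 10.8 CPM, with CDH5 at 0 in every library, PECAM1 at 3.00 to 6.22 CPM and KDR at 3.53 to 6.28 CPM. The sum of 5 fibroblast genes was 6.36 to 18.7 and 6.72 to 8.42 CPM, highest in siCIP2A#1, where COL1A1 stood at 14.4 CPM. The part of these genes in the results below was not tested. Among the controls, SCR#2 and SCR#3 differed by a chi-square per degree of freedom of 3.10 over all genes, whereas the mock differed from them by 10.8 and 8.58.

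Levels of the 32 genes spanned a wide range. Per kilobase of exon in the controls, the 5 highest were CALR at 471 CPM per kb, HSP90B1 at 430, VCP at 346, CANX at 271 and P4HB at 248. These encode the lectin chaperones calreticulin and calnexin, the HSP90-type chaperone GRP94, the ATPase that extracts ERAD substrates, and the founding protein disulfide isomerase. HSPA5, which encodes the HSP70-type chaperone BiP and binds the sensors at rest, followed at 155 CPM per kb. The sensor genes were far lower, with ATF6 at 9.14, EIF2AK3 at 4.38 and ERN1 at 0.894 CPM per kb, against 22.3 for XBP1. The 3 control libraries did not overlap between neighbours at several places in this order. Examples are HSP90B1 (385 to 461) above VCP (336 to 359) and VCP above CANX (260 to 277). CALR (462 to 483) stood just above HSP90B1, whereas the control libraries of CANX and P4HB (237 to 263) overlapped. All libraries of a gene share the same exon length, so this spread leaves out uncertainty in that length. Without the division, control means were 1513 CPM for VCP, 1231 for HSP90B1, 1203 for CANX and 895 for CALR, a different order. At the low end, DERL3, an ERAD gene of secretory tissues, stood at 0.492 CPM per kb, and the untested TXNDC5 at 0.0281.

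**Figure D1:**
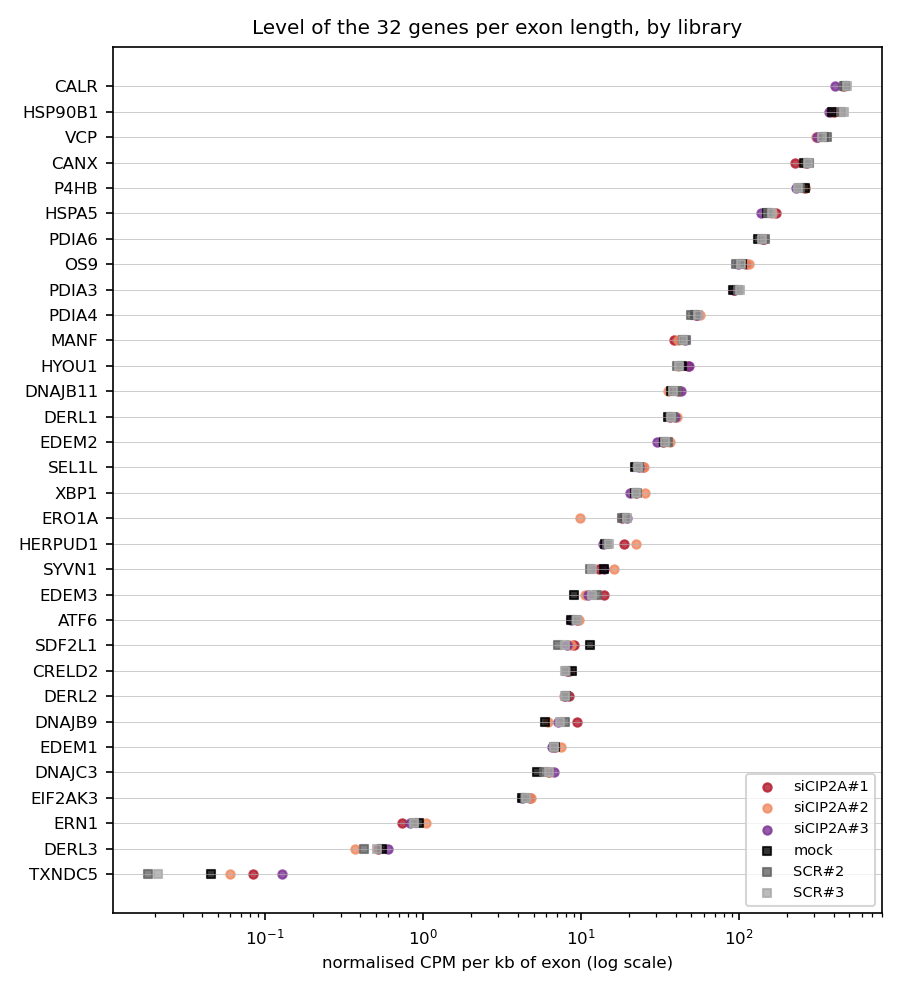
Level of each of the 32 genes in normalised CPM per kb of exon on a log axis, with 1 point per library (circles, siCIP2A libraries; squares, control libraries). The span between the tested genes runs from 471 CPM per kb for CALR to 0.492 for DERL3 in the controls, the points of TXNDC5, the lowest gene, spread from 0.0181 to 0.128, and the ERO1A point of siCIP2A#2 (9.82) lies apart from the other 5.

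TXNDC5, which encodes a disulfide isomerase, was the gene left untested. It had 5, 3 and 7 counts with siCIP2A#1, #2 and #3, against 2, 1 and 1 counts in the mock, SCR#2 and SCR#3, at a floor of 3 counts per library, so no fold is given. Its locus is also covered by the read-through gene BLOC1S5-TXNDC5, which had 0 counts in every library. The sources used here do not say how reads in overlapping genes were assigned, and these counts may not reflect the level of the transcript.

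Promoter sequence was compared because chaperone genes are known for stress elements there. RefSeq windows (GRCh38.p14) of 300 bases, from 250 before to 50 after the annotated start, were found for 29 of the 32 genes. The ER stress element (ERSE), searched on both strands as CCAAT and CCACG with 9 bases between them, lay in 7 of the 29 (24.1%), against 0.0916% of 27305 genes. The related element ERSE-II, searched as ATTGG and CCACG with 1 base between them, lay in 3 of the 29 (10.3%), against 0.0696% of genes. No window of the 29 held both. The elements are shown because they are known as the sequence that links chaperone genes to ATF6 and XBP1, with the searched letters in capitals, 5′ to 3′ on the strand named. A match is a description of the sequence, not evidence of binding.
HSPA5: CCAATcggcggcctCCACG (chr9:125241391-125241409, minus strand)
HSP90B1, upstream match: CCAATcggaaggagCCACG (chr12:103930216-103930234, plus strand)
HSP90B1, downstream match: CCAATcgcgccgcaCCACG (chr12:103930321-103930339, minus strand)
CALR: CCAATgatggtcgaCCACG (chr19:12938384-12938402, minus strand)
CANX: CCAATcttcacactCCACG (chr5:179698778-179698796, plus strand)
PDIA6: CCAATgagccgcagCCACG (chr2:10812853-10812871, minus strand)
XBP1: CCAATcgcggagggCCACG (chr22:28800603-28800621, minus strand)
CRELD2: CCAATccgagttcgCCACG (chr22:49918554-49918572, minus strand)
HERPUD1: ATTGGgCCACG (chr16:56932025-56932035, plus strand)
SDF2L1: ATTGGtCCACG (chr22:21642114-21642124, minus strand)
HYOU1, the match nearer the start: ATTGGaCCACG (chr11:119057274-119057284, plus strand)

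HYOU1 held the same 11 letters a second time at chr11:119057380-119057390 on the plus strand. The core TGACGTGG, bound by XBP1, lay in 3 of 29 windows (HYOU1, where it overlaps that second ERSE-II, TXNDC5 and VCP) against 0.927% of genes, and the C/EBP-ATF core TGATGCAA, a site of ATF4 and CHOP, lay in HERPUD1 alone of the 29 against 1.08% of genes. Of the 31 tested genes, the 7 with an ERSE had a median log2 difference (siCIP2A minus control) of 0.0050, ranging from -0.16 to 0.03, and the 21 with a window and none had a median of 0.05. None of the 7 was called by edgeR in the comparisons below with all 6 libraries.

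The main comparison asked whether the 3 CIP2A siRNAs as a group moved these genes. None of the 31 tested genes was called higher or lower by edgeR at an adjusted p under 0.05, as for all 13562 tested genes (0% called), the silenced CIP2A among them. The lack of calls therefore does not show that the genes did not change. No member had an unadjusted p under 0.05, against 369 (2.72%) of all 13562 tested genes, so 0 of 31 members stood near that share. DESeq2 called 3 genes and limma-voom 0, none of them members. The log2 difference (siCIP2A minus control) was above 0 for 21 members and below 0 for 10, with a median of 0.02, and over all genes 49.7% were above 0 with a median of -0.0011. It lay within 0.25 of 0 for 29 of the 31, and the 95% interval lay within 0.5 of 0 for 28. The 3 exceptions were HERPUD1 (0.31, interval -0.02 to 0.64), ERO1A (-0.25, interval -0.67 to 0.17) and the weakly expressed DERL3 (0.03, interval -0.59 to 0.64). The summed CPM of all 32 genes was 97.0%, 97.4% and 93.8% of the control mean with siCIP2A#1, #2 and #3, against 97.3%, 101% and 101% in the mock, SCR#2 and SCR#3.

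**Figure D2:**
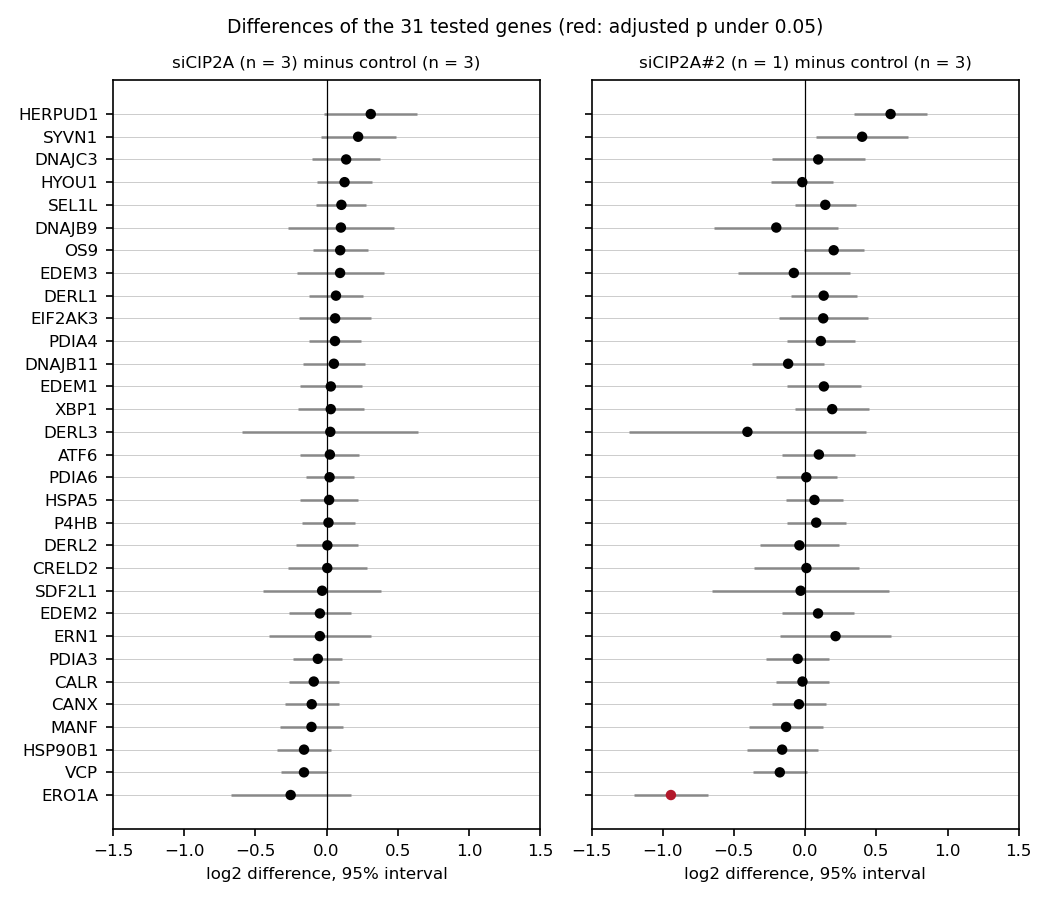
Log2 difference of each tested gene (point) with its 95% interval from edgeR (line), for siCIP2A as a group minus control on the left and siCIP2A#2 minus control on the right, with an adjusted p under 0.05 in red. On the left the points run from -0.25 for ERO1A to 0.31 for HERPUD1 and none is red, and on the right ERO1A at -0.94 is the red point.

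Among the 9 genes listed as chaperones of the HSP type and cofactors, MANF and CRELD2 included, 6 had a group difference above 0 and 3 below, with a median of 0.02. HSPA5 stood at 670, 634 and 536 CPM with siCIP2A#1, #2 and #3, against 590, 595 and 633 CPM in the mock, SCR#2 and SCR#3. The libraries of siCIP2A#1 and #2 lay above every control and that of siCIP2A#3 below every control, and the means were 613 ± 69.5 CPM and 606 ± 23.4 CPM (SD, n = 3 each; log2 difference 0.02, SE 0.09, edgeR adjusted p = 0.999). The sign of this value turned without siCIP2A#1 (-0.05), without siCIP2A#2 (-0.0070) and without the mock (-0.0012). HSP90B1 stood at 1140, 1100 and 1068 CPM, against 1104, 1268 and 1320 CPM in the mock, SCR#2 and SCR#3 (log2 difference -0.16, SE 0.09, edgeR adjusted p = 0.999). All 3 siCIP2A libraries were below SCR#2 and SCR#3 but not all below the mock. Without the mock the difference of HSP90B1 was -0.23 and without SCR#3 -0.11. HYOU1, a large HSP70 relative that acts as an exchange factor for BiP, stood at 223, 195 and 229 CPM with siCIP2A#1, #2 and #3, against 205, 192 and 196 CPM in the mock, SCR#2 and SCR#3, so that siCIP2A#1 and #3 lay above the controls and siCIP2A#2 among them.

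Several of the remaining genes of this class act with BiP as J-domain cofactors. DNAJB9, which also restrains IRE1, stood at 25.6, 16.7 and 19.4 CPM with siCIP2A#1, #2 and #3, against 15.9, 21.6 and 20.1 CPM in the mock, SCR#2 and SCR#3, where the mock was the lowest of all 6. SDF2L1, a partner of the J-domain protein encoded by DNAJB11, stood at 7.85, 7.43 and 7.07 CPM, against 9.90, 6.20 and 6.85 CPM, with the mock the highest of all 6. DNAJB11 stood at 85.3 to 103 CPM in the siCIP2A libraries and 88.7 to 97.3 CPM in the controls, and DNAJC3, which encodes an inhibitor of PERK, at 34.6 to 37.6 and 29.2 to 35.2 CPM. The secreted stress proteins encoded by MANF and CRELD2 stood at 44.7 to 52.4 and 12.8 to 13.2 CPM in the siCIP2A libraries, against 50.9 to 53.0 and 12.5 to 13.8 CPM in the controls. These 6 genes had group differences between -0.11 (MANF) and 0.14 (DNAJC3).

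The lectin chaperones bind sugars on unfolded glycoproteins. CALR stood at 871, 884 and 769 CPM with siCIP2A#1, #2 and #3, against 888, 879 and 919 CPM in the mock, SCR#2 and SCR#3. CANX stood at 999, 1167 and 1192 CPM, against 1154, 1231 and 1224 CPM. The low library was siCIP2A#3 for CALR and siCIP2A#1 for CANX. The group differences were -0.09 (SE 0.08) and -0.10 (SE 0.09).

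Of the disulfide enzymes, ERO1A was the 1 gene of the 32 that edgeR called in any comparison with all 6 libraries and the filter on low counts. Without that filter HERPUD1 was called too, in siCIP2A#2 against control and against siCIP2A#3. ERO1A encodes the oxidase that passes electrons from protein disulfide isomerase to oxygen and so supplies the oxidising power for disulfide bonds. It is also known as a hypoxia and CHOP target. The gene lies on chromosome 14 from 52639915 to 52695558 (GRCh38.p14, minus strand). ERO1A stood at 97.0, 52.2 and 103.6 CPM with siCIP2A#1, #2 and #3, against 100.4, 97.2 and 103.8 CPM in the mock, SCR#2 and SCR#3. The siCIP2A#2 library lay at 52.0% of the control mean, while the other siCIP2A libraries stood at 96.5% and 103%. With siCIP2A#2 the 4 tested isomerases lay closer to the control mean than ERO1A did. P4HB stood at 598 to 682 CPM in the siCIP2A libraries and 618 to 684 CPM in the controls, PDIA3 at 345 to 349 and 340 to 380 CPM, PDIA4 at 154 to 164 and 143 to 160 CPM, and PDIA6 at 490 to 498 and 460 to 512 CPM. Their group differences lay between -0.06 (PDIA3) and 0.06 (PDIA4), and none was called. PDIA3 and PDIA6 overlap other genes of the table (ELL3 and ATP6V1C2), and the sources used here do not give the strand setting of the counting.

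**Figure D3:**
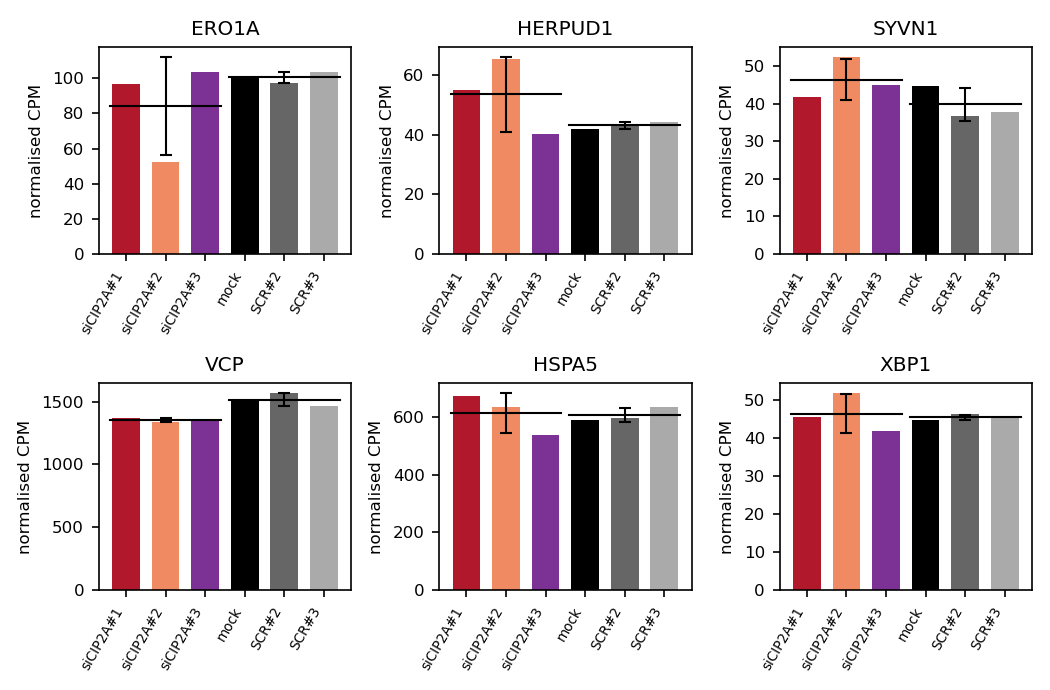
Normalised CPM of 6 genes in each library, with the siCIP2A libraries left of the controls. Horizontal lines are group means and whiskers 1 SD (n = 3 each). The ERO1A bar of siCIP2A#2 is 52.2 CPM beside 97.0 to 103.8 CPM in the other 5, HERPUD1 is high with siCIP2A#1 and #2, VCP is lower in all 3 siCIP2A libraries, and HSPA5 and XBP1 are low with siCIP2A#3.

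The sensor genes and XBP1 had group differences between -0.05 (ERN1) and 0.06 (EIF2AK3). XBP1, which encodes the transcription factor made active by IRE1 splicing, stood at 45.6, 51.9 and 41.8 CPM with siCIP2A#1, #2 and #3, against 44.8, 46.2 and 45.3 CPM in the mock, SCR#2 and SCR#3. ATF6 stood at 71.0, 73.2 and 64.6 CPM, against 65.1, 69.3 and 71.1 CPM. For both genes siCIP2A#2 was the highest of the 6 libraries and siCIP2A#3 the lowest. ERN1 stood at 7.20, 10.1 and 8.13 CPM, against 9.17, 8.54 and 8.55 CPM, and EIF2AK3 at 22.8, 23.1 and 20.3 CPM, against 20.5, 21.5 and 21.6 CPM. With siCIP2A#2 all 4 genes lay above every control and with siCIP2A#3 all 4 lay below every control, where 28.6% of all tested genes lay above every control with siCIP2A#2 and 28.6% below every control with siCIP2A#3. The log2 differences were small (0.10 to 0.21 with siCIP2A#2, and -0.12 to -0.06 with siCIP2A#3) and 0 of 4 were called. Gene counts do not show the splicing of XBP1 or the cleavage of ATF6, so the activity of the sensors was not measured.

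Of the 11 ERAD genes, 9 had a group difference above 0 and 2 below, with a median of 0.07 and 0 called. Over all tested genes 49.7% lay above 0. By siRNA, 8, 7 and 4 of the 11 lay above 0 with siCIP2A#1, #2 and #3, with medians of 0.08, 0.13 and -0.01. VCP, which encodes the p97 ATPase that pulls substrates from the ER membrane, stood at 1368, 1337 and 1362 CPM with siCIP2A#1, #2 and #3, against 1503, 1570 and 1467 CPM in the mock, SCR#2 and SCR#3. Every siCIP2A library was below every control, and the means were 1356 ± 16.1 CPM and 1513 ± 52.0 CPM (SD, n = 3 each). The log2 difference was -0.16 (SE 0.07) and was not called (edgeR adjusted p = 0.999, and 0.707 to 1.00 over the alternatives). VCP was the 1 member of 31 (3.23%) lower without overlap, against 4.38% of all tested genes, and 0 members were higher without overlap, against 3.26%. Both shares of members stood near or under those over all genes. With RLE factors SEL1L was also higher without overlap.

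HERPUD1 encodes a membrane protein that gathers the degradation complex and is a known target of the stress response. It lies on chromosome 16 from 56932142 to 56944864 (GRCh38.p14, plus strand). HERPUD1 stood at 55.0, 65.5 and 40.3 CPM with siCIP2A#1, #2 and #3, against 41.9, 43.2 and 44.5 CPM in the mock, SCR#2 and SCR#3. The libraries of siCIP2A#1 and #2 lay above every control and that of siCIP2A#3 below every control, so the group difference of 0.31 (SE 0.15, edgeR adjusted p = 0.999) was 0.14 without siCIP2A#2 and 0.48 without siCIP2A#3. SYVN1, which encodes the ubiquitin ligase HRD1, stood at 41.9, 52.4 and 44.8 CPM, against 44.8, 36.7 and 37.9 CPM, with the mock close to siCIP2A#3. Its group difference was 0.22 (SE 0.12, edgeR adjusted p = 0.999), 0.12 without siCIP2A#2 and 0.31 without the mock. SYVN1 overlaps MRPL49 in the annotation.

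None of the other ERAD genes was called in a comparison with all 6 libraries. SEL1L, the partner of HRD1, stood at 198 to 214 CPM in the siCIP2A libraries and 187 to 199 CPM in the controls, and OS9, a lectin that picks glycoproteins for degradation, at 280 to 333 and 276 to 301 CPM. EDEM3, one of the mannose-trimming EDEM proteins, stood at 97.6, 73.1 and 76.6 CPM with siCIP2A#1, #2 and #3, against 63.0, 87.2 and 81.3 CPM in the mock, SCR#2 and SCR#3, with the mock lowest, and siCIP2A#1, above every control, at 0.34 (log2). EDEM1 stood at 41.4 to 47.0 and 42.4 to 43.5 CPM and EDEM2 at 58.4 to 70.3 and 64.5 to 68.3 CPM. Of the channel-forming derlins, DERL1 stood at 126 to 140 CPM in the siCIP2A libraries and 123 to 133 CPM in the controls and DERL2 at 33.0 to 35.5 and 33.5 to 34.3 CPM. DERL3 stood at 1.73, 1.23 and 2.00 CPM with siCIP2A#1, #2 and #3, against 1.82, 1.40 and 1.70 CPM, where the groups overlapped. It lay at 74.8% and 122% of the control mean with siCIP2A#2 and #3. DERL2 overlaps MIS12 and DERL3 overlaps SMARCB1 in the annotation, which leaves their counts uncertain.

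**Figure D4:**
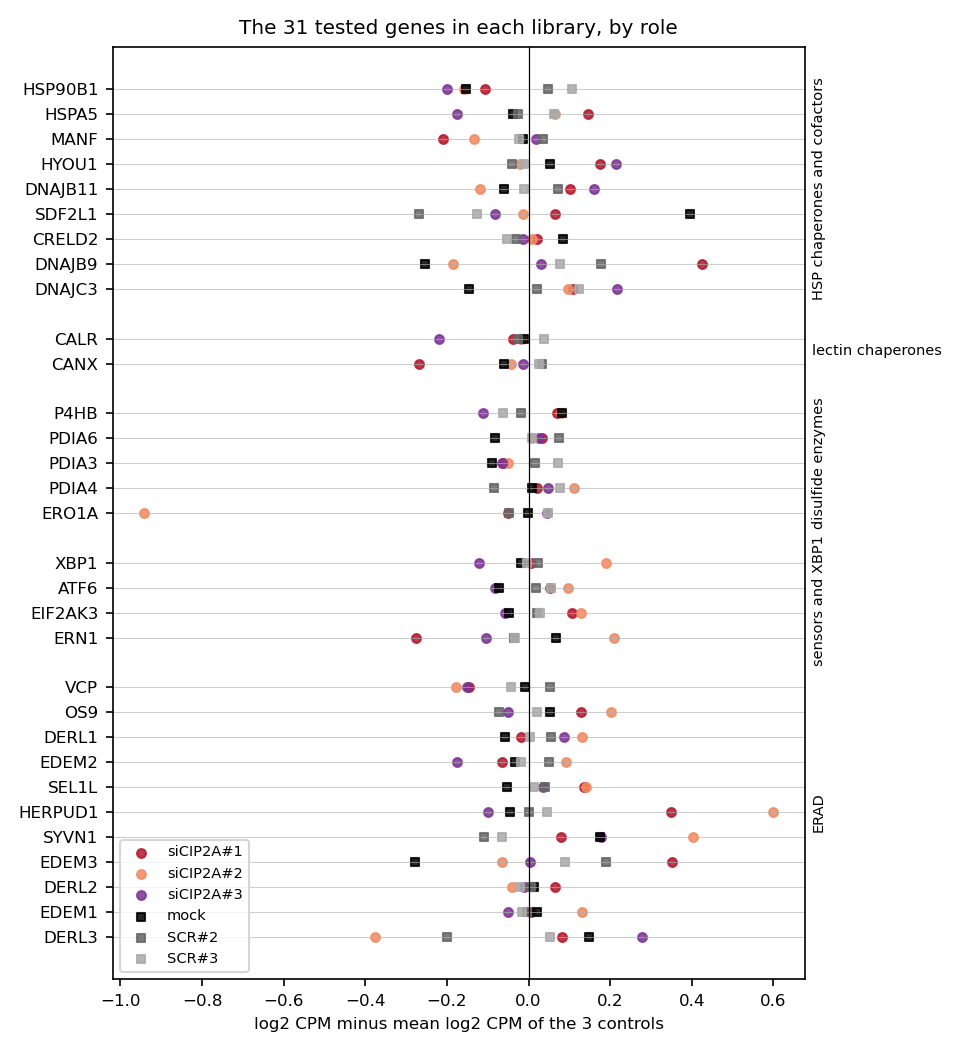
Log2 CPM of each tested gene in each library minus the mean of the 3 controls, by role (circles, siCIP2A libraries; squares, control libraries). The siCIP2A#2 point of ERO1A at the far left and those of HERPUD1 and SYVN1 at the right lie outside the spread of the controls, and the mock lies apart from SCR#2 and SCR#3 for SDF2L1, EDEM3 and DNAJB9.

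Each siRNA was then compared with the 3 controls. An siRNA had a single library here, whose variation was taken to be that of the controls, and the 3 comparisons share their controls. With siCIP2A#2, 1 of 31 members was called, against 0.0737% of all tested genes. On the log2 scale ERO1A was lower, at -0.94 (SE 0.11, 95% interval -1.20 to -0.68, edgeR adjusted p = 0.0332). It was called under 9 of 9 alternatives, with values from -0.97 to -0.92. Each alternative used the same siCIP2A#2 library, so they do not show whether the lower value would repeat. HERPUD1 stood at 0.60 with siCIP2A#2 (SE 0.11, edgeR adjusted p = 0.158), was called under 2 of 9 alternatives, and stood at 0.58 without the mock (edgeR adjusted p = 4.49e-06). SYVN1 stood at 0.40 (SE 0.14, edgeR adjusted p = 0.362) and at 0.49 without the mock (edgeR adjusted p = 1.16e-04). Without the mock VCP was called too, at -0.18 (edgeR adjusted p = 0.0198), and 6 of 31 members were called in all, among 3088 of 13782 genes.

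With siCIP2A#1, 0 of 31 members were called by edgeR, against 0.118% of all tested genes. An unadjusted p under 0.05 was held by 3 members (9.68%), against 9.95% of all tested genes. CANX stood at -0.27 (SE 0.08, adjusted p = 0.323), HERPUD1 at 0.35 (SE 0.11, adjusted p = 0.336) and DNAJB9 at 0.41 (SE 0.18, adjusted p = 0.494). With siCIP2A#3, 0 were called, against 0.00737% of all tested genes. An unadjusted p under 0.05 was held by 2 members (6.45%), against 8.22% of all tested genes. CALR stood at -0.22 (SE 0.08, adjusted p = 0.574) and HYOU1 at 0.21 (SE 0.09, adjusted p = 0.606), and HSPA5 followed at -0.18 (SE 0.09, adjusted p = 0.641). DESeq2 and limma-voom called 0 members with these siRNAs. Without the mock 4 members were called with each, CANX (-0.30), HERPUD1 (0.33), HSP90B1 and HYOU1 with siCIP2A#1, and CALR (-0.23), HSPA5 (-0.20), HYOU1 (0.24) and HSP90B1 with siCIP2A#3, among 1896 and 1330 of 13782 genes. The spread then rests on SCR#2 and SCR#3 alone.

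More members of a single siRNA lay outside the range of the controls than were called. With siCIP2A#1, 10 of 31 members (32.3%) lay above the highest control, against 26.5% of all tested genes, and 7 (22.6%) below the lowest, against 28.8%. With siCIP2A#2, 13 members (41.9%) lay above, against 28.6%, and 7 (22.6%) below, against 30.7%. With siCIP2A#3, 6 members (19.4%) lay above, against 25.7%, and 12 (38.7%) below, against 28.6%. HSPA5, EIF2AK3 and HERPUD1 lay above the controls with both siCIP2A#1 and #2 and below them with siCIP2A#3. VCP was below them with all 3.

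The siRNAs were also set against each other in the same fit. ERO1A stood at -0.89 for siCIP2A#2 minus siCIP2A#1 (SE 0.13, edgeR adjusted p = 0.0842) and at -0.99 for siCIP2A#2 minus siCIP2A#3 (SE 0.13, edgeR adjusted p = 0.0746), and neither difference was called. Each was called under 5 of 9 alternatives: DESeq2 (adjusted p = 8.69e-04 and 1.87e-04), no filter, and without each control. In siCIP2A#2 against siCIP2A#1, 0 of 31 members were called, against 0.0147% of all tested genes. DNAJB9 stood at -0.61 and ERN1 at 0.49 there (edgeR adjusted p = 0.338 and 0.409). In siCIP2A#2 against siCIP2A#3, edgeR called 0 members and 0% of all genes, with 2116 genes at an unadjusted p under 0.05, 96 genes called by DESeq2 and 0 by limma-voom. HERPUD1 stood at 0.70 there (SE 0.14, edgeR adjusted p = 0.130) and was called without a filter and without the mock. In siCIP2A#1 against siCIP2A#3, 0 of 31 members were called, against 0.509% of all tested genes. HERPUD1 stood at 0.45, HSPA5 at 0.32 and CANX at -0.26 there (edgeR adjusted p = 0.229, 0.245 and 0.326), and these 3 were called without the mock. Without the mock, 5 members were called in siCIP2A#2 against siCIP2A#1, 10 in siCIP2A#2 against siCIP2A#3 and 5 in siCIP2A#1 against siCIP2A#3, among 2302, 3026 and 2477 of 13782 genes.

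Non-targeting siRNA was then compared with the mock. The design text describes the mock as not transfected, so a difference need not be that of an siRNA alone. The fit held all 6 libraries, so its spread came from the siCIP2A libraries as well as from SCR#2 and SCR#3. Chi-square per degree of freedom was 14.6 to 17.1 between the siCIP2A libraries and 3.10 between SCR#2 and SCR#3. edgeR called 0 of 31 members and 0% of all genes, with 856 genes at an unadjusted p under 0.05, 3 genes called by DESeq2 and 0 by limma-voom. SDF2L1 stood at -0.60 (SE 0.22, edgeR adjusted p = 0.741), EDEM3 at 0.42 (SE 0.18, edgeR adjusted p = 0.780) and HSP90B1 at 0.23 (SE 0.11, edgeR adjusted p = 0.791). For SDF2L1, EDEM3 and HSP90B1 these were larger in size than their siCIP2A differences of -0.03, 0.10 and -0.16. The comparison has 1 mock library.

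The promoters of the 2 genes with the largest differences in siCIP2A#2 are given as the 250 bases before the annotated start, from RefSeq (GRCh38.p14), read in the direction of the gene. Capitals mark matches to the elements searched, for HERPUD1 first the C/EBP-ATF core on the opposite strand and then ERSE-II. ERO1A held no match to the 4 elements in its window.
ERO1A, chr14:52695559-52695808, minus strand: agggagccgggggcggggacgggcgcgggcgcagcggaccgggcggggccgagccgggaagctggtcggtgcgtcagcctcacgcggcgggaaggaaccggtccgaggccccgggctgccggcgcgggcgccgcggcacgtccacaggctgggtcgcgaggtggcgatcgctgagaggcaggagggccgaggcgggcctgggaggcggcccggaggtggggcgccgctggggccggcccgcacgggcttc
HERPUD1, chr16:56931892-56932141, plus strand: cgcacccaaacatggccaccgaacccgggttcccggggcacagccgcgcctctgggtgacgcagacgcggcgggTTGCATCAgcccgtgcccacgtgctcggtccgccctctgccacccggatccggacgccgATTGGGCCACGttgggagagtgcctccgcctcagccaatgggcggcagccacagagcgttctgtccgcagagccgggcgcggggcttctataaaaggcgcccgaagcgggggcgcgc

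Other genes of the pathway were read from lists chosen by name, with earlier results of these data known. Their counts and shares are therefore a description and not a test of the lists. The PERK branch and ATF4 output was the 1 list with calls in siCIP2A#2, where 5 of 20 genes rose, against 0.0737% of all tested genes called. In that library 17 of 20 lay above 0 and the median log2 difference was 0.68, against 49.4% above 0 and a median of -0.0030 over all tested genes. CHAC1, a glutathione-degrading enzyme, stood at 6.06, 21.4 and 5.07 CPM with siCIP2A#1, #2 and #3, against 6.33, 4.62 and 4.48 CPM in the mock, SCR#2 and SCR#3, and rose by 2.06 with siCIP2A#2 (SE 0.20, edgeR adjusted p = 0.0165). DDIT3, which encodes the stress factor CHOP, stood at 26.03, 52.9 and 29.8 CPM, against 27.7, 27.2 and 26.4 CPM, and rose by 0.96 (SE 0.12, edgeR adjusted p = 0.0332). SESN2, a regulator of mTORC1, rose by 1.28, the pseudokinase gene TRIB3 by 1.00 and the serine synthesis gene PSAT1 by 0.88 (edgeR adjusted p = 0.0165, 0.0310 and 0.0165). In the siCIP2A#2 library the 31 tested members had a median of 0.0089, with 17 above 0 and 14 below, and ran from -0.94 (ERO1A) and -0.41 (DERL3) to 0.40 (SYVN1) and 0.60 (HERPUD1). The same list had a median of 0.11 with siCIP2A#1 and -0.00050 with siCIP2A#3, with 0 called in each. In the group comparison 19 of 20 lay above 0 with a median of 0.30 and 0 called. Without siCIP2A#2 the group difference of CHAC1 was 0.12 beside 1.07 and that of SESN2 0.25 beside 0.67. That of STC2 was 0.41, and 0.31 to 0.49 with any 1 library left out. SESN2 and STC2 lay above every control in each siCIP2A library, where 3.26% of all tested genes did, and CHAC1 did not.

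The remaining lists had 0 called with siCIP2A#2 and values in both directions, from -0.44 (DNAJC10) to 0.68 (FKBP7), both named for being at the ends. The median was 0.01 for 38 other folding and disulfide genes, 0.05 for 42 other ERAD and ubiquitin genes, 0.02 for 34 genes of translocation, signal peptidase and oligosaccharyltransferase, and 0.13 for 25 genes of stress proteolysis, the OASIS family and ER transport. In the same order 23.7%, 16.7%, 11.8% and 28.0% had an unadjusted p under 0.05, against 11.6% of all tested genes. The ER peroxidase gene GPX8 stood at 0.57 (edgeR adjusted p = 0.130) and CREB3L1, an ER-bound transcription factor of the OASIS family, at 0.67 (edgeR adjusted p = 0.203), and both were called by DESeq2. Outside siCIP2A#2, 3 genes of these lists were called. TMX2, a transmembrane thioredoxin-related gene, stood at 32.3, 48.2 and 71.3 CPM with siCIP2A#1, #2 and #3, against 58.5, 61.2 and 59.6 CPM in the mock, SCR#2 and SCR#3, and was lower with siCIP2A#1 at -0.89 (log2, SE 0.12, edgeR adjusted p = 0.0451, or 0.0519 with RLE factors). ERLIN1 and ERLIN2 encode partner scaffold proteins of ERAD. ERLIN1 stood at 54.5, 70.7 and 109.8 CPM, against 90.3, 100.03 and 93.2 CPM, and ERLIN2 at 64.2, 58.5 and 25.5 CPM, against 53.4, 53.4 and 58.4 CPM. In siCIP2A#1 minus siCIP2A#3 they stood at -1.01 and 1.33 (edgeR adjusted p = 0.0364 and 0.0220), and neither was called for any single siRNA against the controls.

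**Figure D5:**
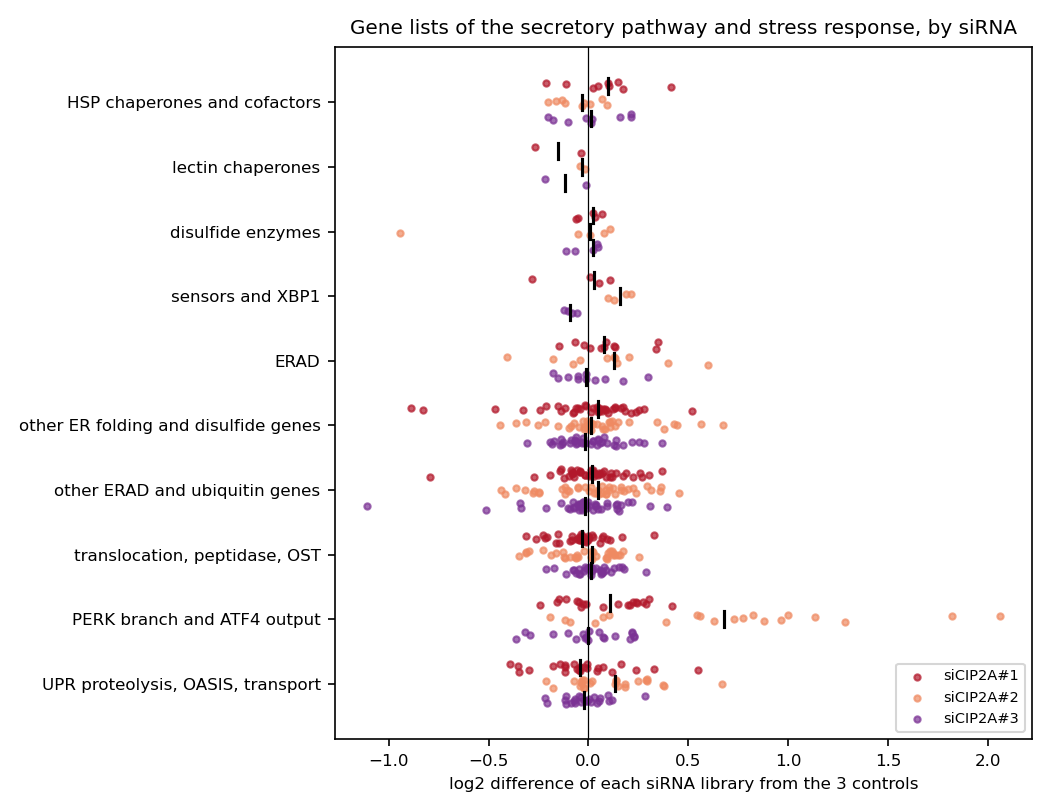
Log2 difference of each gene from the 3 controls, by list (rows) and siRNA (colours, siCIP2A#1 uppermost and siCIP2A#3 lowest within a row), with the list's median as a black bar. The siCIP2A#2 points of the PERK branch and ATF4 output spread to 2.06 with a median of 0.68, and the other medians lie between -0.15 and 0.16.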

How the data were processed

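The authors deposited raw read counts per gene, whole numbers for 26485 genes and 6 libraries in 1 table, per the file headers. Per the labels' protocols, the library kit was TruSeq Stranded mRNA. STAR 2.5.4b, Subread 1.5.1, bcl2fastq 2.17 and build hg38 are named per the submitters' processing notes. The sources used here do not give the annotation, strand setting or treatment of multiply mapped reads, which leaves values of overlapping genes uncertain.

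A spreadsheet had altered 51 symbols, among them ERN1, and 50 were restored by Entrez identifier. Genes were filtered with filterByExpr (minimum count 10), leaving 13562, and scaled with TMM. Tests used edgeR 4.0.16 in R 4.3.3 (robust dispersion, glmQLFit, glmQLFTest) with Benjamini-Hochberg adjustment over all tested genes and a threshold of 0.05. The group fit had 4 residual degrees of freedom, the fit with each siRNA as a level 2, and non-targeting siRNA against mock 3. CPM use TMM-scaled library sizes, and exon lengths are unions of GENCODE 29 basic exons. Standard errors come from the quasi-likelihood F, and intervals are 95%. A count of 3, taken as the floor for counting error only, was 0.165 to 0.214 CPM. The fits were also run on simulated counts with known changes, with the spread taken from the 3 controls alone. That spread leaves out differences between CIP2A siRNAs, so the run does not show what the group fit can detect. Chi-square per degree of freedom was 3.10 to 17.1 within groups, so no library was a copy.

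The 32 genes, the other lists and the tests were chosen with earlier results of these data known. Values in every library are given for genes called in any comparison, the up to 3 with the smallest p in each, those whose groups do not overlap, and HSPA5, XBP1, ERN1, EIF2AK3, ATF6 and DERL3. Of other lists, called genes are named, and up to 3 with the smallest p in the group comparison and siCIP2A#2 were eligible. Alternatives were RLE and upper quartile factors, DESeq2 1.42.0, limma-voom (limma 3.58.1), no filter, a filter at 1 CPM in 3 libraries, a replicate block, a level of its own for the mock, and leaving out each library in turn.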

Additional observations from a re-analysis of the deposited data

Results flagged for a closer look

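Among CIP2A and the genes of the lists read here, the difference between siRNAs passed its own test in edgeR for 4, each siRNA being 1 library. Over all tested genes 2 passed in siCIP2A#2 minus siCIP2A#1 and 69 in siCIP2A#1 minus siCIP2A#3. The targeted gene CIP2A stood at 1.49 (log2) for siCIP2A#2 minus siCIP2A#1, at 45.8 and 16.3 CPM (adjusted p = 0.0302, and 0.0504 with limma-voom). For siCIP2A#1 minus siCIP2A#3, ERLIN1 stood at -1.01 (54.5 and 109.8 CPM), ERLIN2 at 1.33 (64.2 and 25.5 CPM) and TMX2 at -1.14 (32.3 and 71.3 CPM), with edgeR adjusted p = 0.0364, 0.0220 and 0.0242. The last 3 were called under 9 of 9 alternatives, all of which used the same siCIP2A libraries.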

How the results depend on the processing

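Of 870 recomputed values of single genes, 812 kept their direction and side of the threshold, 12 reversed, 2 became uncalled and 44 became called. The reversed ones were group differences that no setting called. With 1 library left out HSPA5 ranged from -0.0505 (without siCIP2A#1) to 0.106, XBP1 from -0.0575 (without siCIP2A#2) to 0.0989, ERN1 from -0.192 to 0.0607 (without siCIP2A#1), ATF6 from -0.0150 (without siCIP2A#2) to 0.0734 and DERL3 from -0.127 (without siCIP2A#3) to 0.192. With the mock given its own level, HSPA5 stood at -8.58e-04 and ATF6 at -0.0118. The cause was not tested.

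Counts of called genes moved more. In the group comparison DESeq2 and no filter called 3 genes each, beside 0, and leaving out libraries gave 0 to 1. DESeq2 called 75, 61 and 29 genes with siCIP2A#1, #2 and #3, beside 16, 10 and 1, and no filter called 169, 109 and 44. Leaving out a control gave 85 to 1896, 40 to 3088 and 32 to 1330. For siCIP2A#2 minus siCIP2A#1, siCIP2A#2 minus siCIP2A#3 and siCIP2A#1 minus siCIP2A#3, DESeq2 called 89, 96 and 144 genes, beside 2, 0 and 69, no filter 156, 211 and 305, and left-out controls 101 to 2302, 108 to 3026 and 213 to 2477. limma-voom called 1 gene in the first. For non-targeting siRNA against mock DESeq2 called 3 and no filter 5, beside 0. The highest of each range of left-out controls was without the mock, where SCR#2 and SCR#3 alone set the spread. Genes whose groups did not overlap numbered 750 to 1740 higher and 944 to 1767 lower with 1 library left out, beside 442 and 594. Fewer libraries overlap less readily, so a rise follows from leaving out any library and does not by itself show dependence on the processing.

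The labels' replicate numbers did not pair the libraries (correlations of deviations -0.12, -0.13 and 0.0076). With the number as a block 1 gene was called, CIP2A at -2.03 (edgeR adjusted p = 0.0345), and no member. Small differences of weakly expressed members such as DERL3, ERN1 and SDF2L1 were not detectable at this depth and number of libraries.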
